A study of Arabidopsis thaliana with 12 samples.

Results

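The RNA of 4 nuclear genes was followed in 4 genotypes of Arabidopsis thaliana: AT2G33850, AGP4 (AT5G10430), AT1G78050 and AT2G16660. These 4 of the 28642 genes listed were chosen by their low read counts in both genotypes that carry pgr5, as seen in earlier readings of the same libraries. The levels in sapx tapx pgr5 and pgr5 leaves, set against the genotypes without pgr5, are therefore given as a description without a test. The libraries came from fully expanded rosette leaves of sapx tapx pgr5, pgr5, sapx tapx and wild type plants, with 3 libraries per genotype. All plants had grown for 18 days in dim light at a photon flux of 40 to 60 µmol per square metre and second, and all, the wild type included, then stood for 90 min at 1500 in the same unit. No leaves kept in dim light were analysed here, so every difference is between genotypes after the same exposure. The alleles behind the genotype names, and whether the 3 libraries of a genotype came from separate plants, are unknown from the labels, so p-values measure the spread between libraries only.

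PGR5 is a thylakoid protein of cyclic electron flow, a route around photosystem I that builds the proton gradient which slows electron transport under excess light. The products of SAPX and TAPX are ascorbate peroxidases of the chloroplast stroma and of the thylakoid membrane, and both remove hydrogen peroxide. None of the 4 genes encodes a part of these systems. RefSeq names AT2G33850 an E6-like protein of 267 residues, after E6, a protein known from cotton fibres. AGP4 is a classical arabinogalactan protein, one of the heavily glycosylated proteoglycans of the plasma membrane and cell wall, and 72.6% of its 135 encoded residues are proline, alanine, serine or threonine. AT1G78050 encodes a phosphoglycerate mutase of 332 residues, of the family that converts 3-phosphoglycerate to 2-phosphoglycerate in lower glycolysis. AT2G16660 encodes a major facilitator superfamily protein of 546 residues, a class of membrane transporters.

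The genes sit on 3 chromosomes of the TAIR10 genome, in the coordinates of the deposited tables. AT2G33850 is a gene of 1 exon on the minus strand at chr2:14321062-14322049. AGP4, also with 1 exon and on the minus strand, is at chr5:3277532-3278313. AT1G78050 has 8 exons on the plus strand at chr1:29347581-29349755, and AT2G16660 has 3 exons on the minus strand at chr2:7218706-7221625. The mutated loci are not adjacent to any of them: AT1G78050 lies 0.230 Mb from TAPX, AT2G16660 5.14 Mb from PGR5 and AT2G33850 12.2 Mb from PGR5.

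The promoter windows are printed because the 4 genes were low in the same genotypes, and they allow the regulatory letters to be compared. Each runs 5′ to 3′ from 250 bases before the RefSeq gene start to 30 bases from the start onwards, on the strand of the gene, read from the TAIR10.1 genome. The windows are chr2:14322053-14322332 (minus), chr5:3278432-3278711 (minus), chr1:29347331-29347610 (plus) and chr2:7221861-7222140 (minus). Capitals mark matches to the motifs that were searched.
AT2G33850: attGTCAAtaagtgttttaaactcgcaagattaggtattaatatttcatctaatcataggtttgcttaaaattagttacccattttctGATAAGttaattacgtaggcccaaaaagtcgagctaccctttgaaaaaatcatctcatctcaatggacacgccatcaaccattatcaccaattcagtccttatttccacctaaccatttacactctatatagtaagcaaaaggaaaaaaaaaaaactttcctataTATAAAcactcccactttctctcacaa
AGP4: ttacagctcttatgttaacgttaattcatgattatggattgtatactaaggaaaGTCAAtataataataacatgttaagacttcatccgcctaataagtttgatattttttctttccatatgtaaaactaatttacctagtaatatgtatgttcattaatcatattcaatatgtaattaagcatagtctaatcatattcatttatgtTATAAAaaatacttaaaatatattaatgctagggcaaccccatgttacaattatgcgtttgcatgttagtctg
AT1G78050: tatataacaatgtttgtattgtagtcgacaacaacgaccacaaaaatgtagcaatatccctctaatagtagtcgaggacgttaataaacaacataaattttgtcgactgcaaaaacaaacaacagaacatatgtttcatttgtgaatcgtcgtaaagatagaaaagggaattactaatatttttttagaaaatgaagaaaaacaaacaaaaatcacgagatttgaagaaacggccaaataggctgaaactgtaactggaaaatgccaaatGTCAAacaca
AT2G16660: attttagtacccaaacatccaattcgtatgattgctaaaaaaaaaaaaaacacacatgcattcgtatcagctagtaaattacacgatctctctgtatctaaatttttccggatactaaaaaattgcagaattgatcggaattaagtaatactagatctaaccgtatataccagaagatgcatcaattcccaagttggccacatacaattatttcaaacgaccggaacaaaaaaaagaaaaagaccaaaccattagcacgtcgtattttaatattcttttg

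The RefSeq start lies 33 bases upstream of the deposited one for AT2G33850, 148 for AGP4 and 265 for AT2G16660, and it is the same base for AT1G78050. TATAAA, read on the gene strand only, stood 43 bases before the AGP4 start and 3 bases after the RefSeq start of AT2G33850. The match in AT2G33850 lies before the deposited start of that gene. TATAAA was in 35.9% of the 28008 promoters read in the same way. The W-box core TTGAC, searched on both strands, occurred once in AT2G33850, once in AGP4 and once in AT1G78050, as its reverse complement GTCAA, against 48.3% of all promoters. The I-box GATAAG was in AT2G33850 only, 162 bases before the start, and in 13.8% of all promoters. No window held the G-box CACGTG (7.20% of all promoters), the GCC box core GCCGCC (2.27%), the heat shock element core GAANNTTC (10.7%), the L1 box TAAATGTA or TAAATGCA (4.82%), the auxin element TGTCTC (12.7%) or the ABRE core ACGTGG (9.13%), each searched on both strands. No motif was present in all 4 windows, and AT2G16660 had no match to any. The matches depend on the RefSeq starts, and windows at the deposited starts were not read. GC content was 32.1% for AT2G33850, 25.7% for AGP4, 31.4% for AT1G78050 and 31.8% for AT2G16660, with a median of 31.8% over all promoters.

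The libraries held 4916603 to 6828070 reads in exons, so that 3 reads in a library amount to between 0.439 and 0.610 CPM, the reads of a gene per 1000000 exon reads. SAPX and TAPX RNA was low in both genotypes that carry sapx tapx: SAPX averaged 20.8 CPM in sapx tapx pgr5 and 20.5 in sapx tapx leaves, against 241.0 in pgr5 and 213.6 in wild type leaves. PGR5 RNA averaged 241.4, 240.9, 278.5 and 243.2 CPM in sapx tapx pgr5, pgr5, sapx tapx and wild type leaves, so it does not check the pgr5 label. The leaf mesophyll markers summed to between 47442 and 62663 CPM in all libraries, and the 6 flower markers to at most 4.91 CPM. Fewer cells of a type and less RNA per cell cannot be told apart in these whole-leaf samples.

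AT2G33850 was almost without reads in both genotypes that carry pgr5. The sapx tapx pgr5 libraries had 0, 1 and 0 exon reads and the pgr5 libraries 0, 0 and 0, against 52, 78 and 74 in sapx tapx and 149, 141 and 161 in wild type libraries. On the CPM scale the means were 0.0513 ± 0.0889 in sapx tapx pgr5, 0 in pgr5, 11.98 ± 4.15 in sapx tapx and 24.9 ± 0.476 in wild type leaves (SD, n = 3 each). No library with pgr5 came near any library without it, and the 3 wild type libraries lay within 1 CPM of each other. With a floor of 3 reads over the group, the level in pgr5 leaves was 156-fold lower than in wild type leaves, a value set by the floor and not a bound. The 95% counting interval for 0 against 451 reads begins at 126-fold lower. The single read in sapx tapx pgr5 leaves, against 204 in sapx tapx leaves, puts the level 218-fold lower, with a 95% interval of 38.6 to 8642 that covers counting error only.

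AGP4 was low in the same 6 libraries but kept a few reads in each. It had 4, 2 and 3 reads in sapx tapx pgr5 and 2, 5 and 1 in pgr5 libraries, against 43, 35 and 53 in sapx tapx and 52, 47 and 46 in wild type libraries. The means were 0.488 ± 0.201, 0.416 ± 0.301, 7.42 ± 0.617 and 8.02 ± 0.720 CPM in sapx tapx pgr5, pgr5, sapx tapx and wild type leaves (SD, n = 3 each). The libraries with pgr5 lay between 0.160 and 0.748 CPM, around the level of 3 reads, and no library without pgr5 was below 6.82 CPM. The log2 fold change was -4.17 ± 0.33 (SE) for pgr5 over wild type and -3.90 ± 0.33 for sapx tapx pgr5 over sapx tapx. In reads, the first of these is 18.8-fold lower with a 95% counting interval of 9.29 to 44.4.

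AT1G78050 was reduced without being lost. The reads were 19, 16 and 21 in sapx tapx pgr5 and 21, 36 and 17 in pgr5 libraries, against 93, 83 and 148 in sapx tapx and 72, 155 and 106 in wild type libraries. The means were 2.99 ± 0.466, 3.89 ± 1.36, 18.2 ± 3.92 and 18.5 ± 7.58 CPM in sapx tapx pgr5, pgr5, sapx tapx and wild type leaves (SD, n = 3 each). The highest library with pgr5 reached 5.38 CPM and the lowest without it 12.004 CPM, so the groups did not overlap. The log2 fold change was -2.23 ± 0.32 for pgr5 over wild type and -2.61 ± 0.33 for sapx tapx pgr5 over sapx tapx. The reads across exon junctions numbered 38, 53, 233 and 232 in sapx tapx pgr5, pgr5, sapx tapx and wild type leaves. They are part of the exon reads above and so are not independent of the choice of the gene. The library kit does not mark the strand, and the last 77 bases of AT1G78050 overlap AT1G78060 on the opposite strand. That neighbour had 797, 700, 700 and 680 reads in the same order of genotypes.

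AT2G16660 was lowest in pgr5 leaves, with sapx tapx pgr5 leaves between them and the genotypes without pgr5. The reads were 59, 52 and 105 in sapx tapx pgr5 and 25, 47 and 39 in pgr5 libraries, against 132, 73 and 134 in sapx tapx and 106, 189 and 107 in wild type libraries. The means were 11.4 ± 3.99, 5.84 ± 1.44, 18.9 ± 3.04 and 22.4 ± 8.93 CPM in sapx tapx pgr5, pgr5, sapx tapx and wild type leaves (SD, n = 3 each). Here the libraries overlapped: the highest sapx tapx pgr5 library had 15.8 CPM and the lowest sapx tapx library 15.4 CPM. The log2 fold change was -1.93 ± 0.32 for pgr5 over wild type, and only -0.73 ± 0.30 for sapx tapx pgr5 over sapx tapx. The difference between these effects was 1.19 ± 0.44 (log2, sapx tapx background minus wild type background), against 0.28 ± 0.57 for AGP4 and -0.38 ± 0.47 for AT1G78050.

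**Figure D1:**
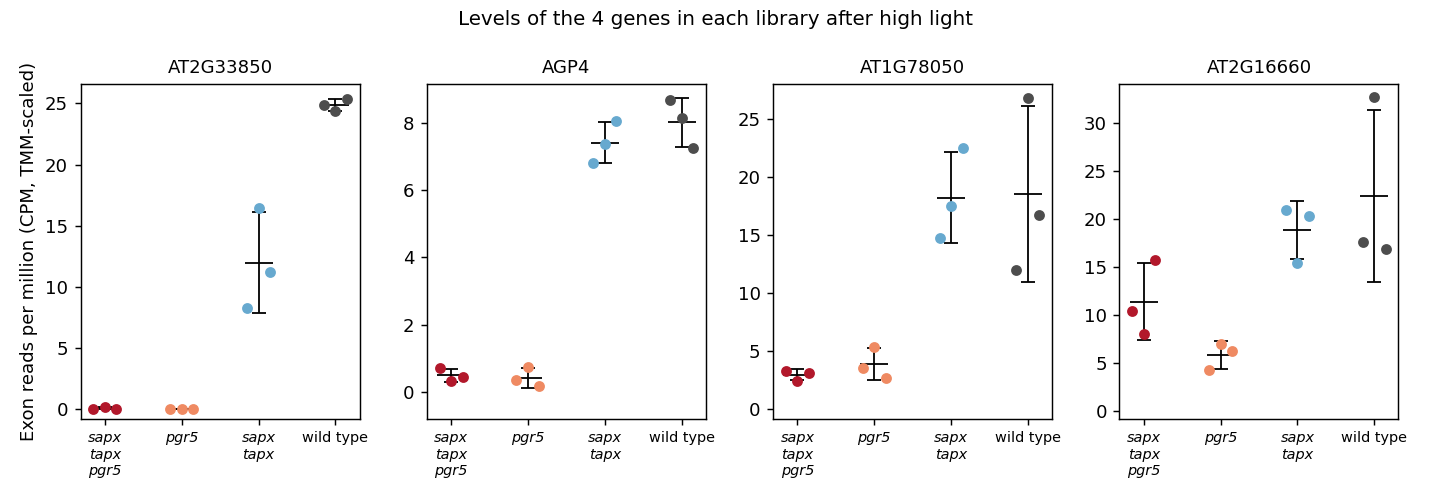
CPM values (TMM-scaled, linear axis) of the 4 genes in the sapx tapx pgr5, pgr5, sapx tapx and wild type libraries. Points are single libraries, and bars are the mean ± SD of 3; AT2G33850 and AGP4 lie at or near 0 in the 6 libraries with pgr5, while the sapx tapx pgr5 and sapx tapx points of AT2G16660 overlap.

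Compared per length, the order of the 4 genes also changed with genotype. In wild type leaves AT2G33850 was the highest, at 25.7 ± 0.514 RPKM (reads per kilobase of exon and per 1000000 gene reads; SD, n = 3), and the other 3 lay between 10.5 and 12.2 RPKM, within the spread of each other. In pgr5 leaves AT2G33850 was at 0, AGP4 at 0.528 ± 0.383, AT1G78050 at 2.49 ± 0.869 and AT2G16660 at 3.06 ± 0.764 RPKM, and the last pair did not differ beyond their spread. Unique exon reads equalled total exon reads for every member in every library, so none of their reads was counted as non-unique.

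The name given to the set was checked against the whole table. Among the 16350 genes tested, ranked by the weaker of the losses in pgr5 over wild type and in sapx tapx pgr5 over sapx tapx, AT2G33850 stood 1st, AGP4 4th, AT1G78050 17th and AT2G16660 219th. In the edgeR fit, 113 genes were called lower in both comparisons at an adjusted p under 0.05, against 1.46% of all genes lower and 2.44% higher in the first and 3.13% lower and 4.78% higher in the second. Of the 113, 35 had a weaker loss above 2-fold, and AT2G16660 was not among the 113. The name thus fits 3 of the 4, and for AT2G16660 it holds for pgr5 over wild type more than for the triple mutant. For all 4 the pgr5 libraries lay below every wild type library, as did 12.1% of the genes tested. For 3 of the 4 the sapx tapx pgr5 libraries lay below every sapx tapx library, as did 11.8%. These counts describe the choice of the genes and are not read further.

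The remaining comparisons ask what sapx tapx does to the 4 genes, with and without pgr5. The choice asked for low reads in both sapx tapx pgr5 and pgr5 leaves, so the comparison of these is not independent of it. For sapx tapx over wild type, 0 of the 4 genes were called by edgeR at an adjusted p under 0.05, where 0.0367% of all genes were called in either direction. At an unadjusted p under 0.05 there was 1 of the 4, and DESeq2 and limma called 0. For sapx tapx pgr5 over pgr5, edgeR again called 0 of the 4, where 1.54% of all genes were called. There was 1 at an unadjusted p under 0.05, and 0 by DESeq2 and limma. AT2G33850 had 1 read against 0 in this comparison and AGP4 9 against 8, so a call of either was out of reach. The count of 0 is therefore not read as a lack of effect.

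The gene behind the first of these was AT2G33850, at 8.24, 16.5 and 11.2 CPM in sapx tapx libraries, against 24.8, 24.4 and 25.4 CPM in wild type libraries. Each sapx tapx library was below each wild type library, as for 5.67% of the genes tested. The log2 fold change was -1.07 ± 0.24 in the edgeR quasi-likelihood fit (unadjusted p = 0.00110, adjusted p = 0.274), and the reads stood at a ratio of 0.465 with a 95% counting interval of 0.392 to 0.550. The difference therefore did not pass the test over all genes. The adjusted p was 0.0551 with DESeq2, and it lay between 0.118 and 0.706 in edgeR fits that left out 1 library. Leaving out replicate 2 of wild type, sapx tapx and sapx tapx pgr5, an alternative chosen after the data were seen, gave -1.36 ± 0.20 with an edgeR adjusted p of 0.00410. In that fit, genotype and the level of rapid stress genes, given below, cannot be told apart.

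For sapx tapx pgr5 over pgr5 it was AT2G16660, at 10.4, 8.003 and 15.8 CPM in sapx tapx pgr5 libraries, against 4.25, 7.03 and 6.26 CPM in pgr5 libraries. The groups did not overlap, as for 20.5% of all genes in either direction. The edgeR log2 fold change was 0.96 ± 0.33 (unadjusted p = 0.0131, adjusted p = 0.217) and did not pass. Without the same 3 libraries it was 1.16 ± 0.22 with an edgeR adjusted p of 0.00891. There too the libraries left in differed by genotype in rapid stress genes.

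The other values were close to 0 or carried wide errors, and the sign of 3 of them changed with the libraries used. AGP4 had a log2 fold change of -0.11 ± 0.22 for sapx tapx over wild type (edgeR adjusted p = 0.955) and 0.17 ± 0.52 for sapx tapx pgr5 over pgr5 (adjusted p = 0.942). AT1G78050 had -0.02 ± 0.28 (edgeR adjusted p = 0.997) and -0.39 ± 0.38 (adjusted p = 0.699) in the same comparisons. AT2G16660 had -0.24 ± 0.29 for sapx tapx over wild type (edgeR adjusted p = 0.910). For AT2G33850 in sapx tapx pgr5 over pgr5 there was 1 read against 0, so no fold is given. AGP4 in sapx tapx pgr5 over pgr5 was -0.21 without pgr5 replicate 3 and -0.15 without sapx tapx pgr5 replicate 1. In sapx tapx over wild type without wild type replicate 2, AT1G78050 was 0.33 and AT2G16660 was 0.12. No direction is therefore read from these 3 values. In simulated counts for sapx tapx over wild type, 52% of 2-fold and 99% of 4-fold changes were recovered over 16205 genes. Changes were given only to genes above a minimum mean level, which AGP4 did not reach, and no divergent library was simulated. Counts were drawn around means over all 12 libraries, with a spread set by the trend over all genes and not by each gene. The recovery therefore does not give the power for any single member, and it does not cover AGP4 or the divergent libraries.

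**Figure D2:**
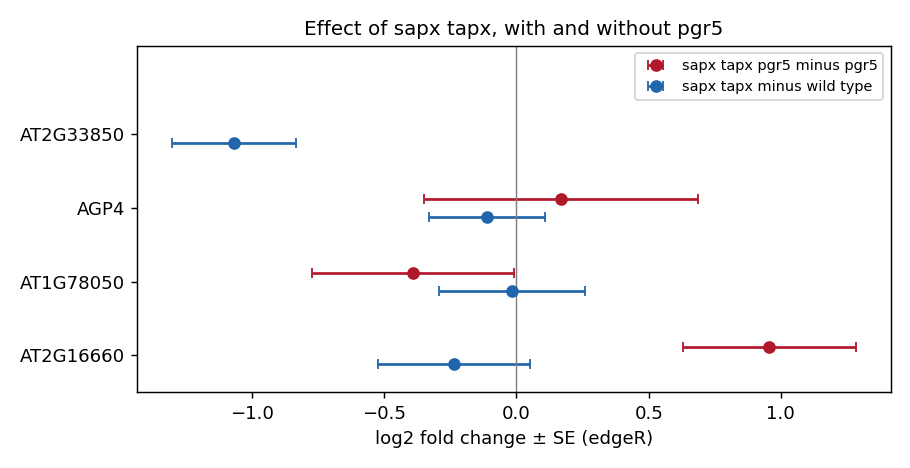
Log2 fold change ± SE from the edgeR fit for the effect of sapx tapx with and without pgr5, sapx tapx pgr5 minus pgr5 (red) and sapx tapx minus wild type (blue). AT2G33850 has no red point because the comparison held 1 read; the values farthest from 0 are AT2G33850 in blue and AT2G16660 in red, and neither passed the adjusted threshold.

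The library with the highest level of AT1G78050 and of AT2G16660 was the same, wild type replicate 2, with 26.8 and 32.7 CPM, against 12.004 and 17.7 in replicate 1 and 16.7 and 16.9 in replicate 3. That library also stood apart in 14 rapid stress and touch genes, with a mean of 5.98 log2 CPM, against 2.62 and 2.79 in the other wild type libraries. In sapx tapx pgr5 the same mean was 5.77, 3.77 and 5.80 in replicates 1 to 3, and AT1G78050 and AT2G16660 were lowest in replicate 2. In pgr5 the mean was 4.91, 5.31 and 4.26, and AT1G78050 and AT2G16660 were highest in replicate 2, at 5.38 and 7.03 CPM. In sapx tapx the mean was 6.45, 4.75 and 6.05. There AT2G16660 was lowest in replicate 2, at 15.4 CPM, while AT1G78050 was lowest in replicate 1, at 14.7 CPM. AGP4 and AT2G33850 did not stand out in wild type replicate 2. The part of this difference between libraries in the results was not tested, and the values without replicate 2 of wild type, sapx tapx and sapx tapx pgr5 are given beside the calls of the 4 genes and of the genes named below that they change. Leaving those 3 libraries out left wild type at 2.62 and 2.79 and sapx tapx at 6.45 and 6.05. It left sapx tapx pgr5 at 5.77 and 5.80, above every pgr5 library. Genotype and stress level cannot be told apart in that fit.

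Few genes shared the near absence of AT2G33850. No gene had 0 reads in all 6 libraries with pgr5 and at least 10 in each of the other 6. Allowing at most 3 reads over the 6 libraries with pgr5, with at least 10 in each of the others, left 2 genes, AT2G33850 and ZIP7 (AT2G04032), a gene of the ZIP metal transporter family. With at least 3 reads in each of the others there were 7, among them ACA2, with 1 read in sapx tapx pgr5 and 0 in pgr5 leaves, against 37 in sapx tapx and 54 in wild type leaves. ZIP7 had 2 reads in sapx tapx pgr5 and 0 in pgr5 leaves, against 151 in sapx tapx and 161 in wild type leaves. ZIP7 is at chr2:1289832-1291383, on the chromosome of PGR5, which is at chr2:2081009-2081858. The part of that position in the ZIP7 level was not tested. In the reverse pattern, at most 3 reads over the 6 libraries without pgr5 and at least 10 in each with it, stood AT1G53540 and HSP17.6A, a small heat shock protein gene. HSP17.6A had 2233 reads in sapx tapx pgr5 and 282 in pgr5 leaves, against 0 in sapx tapx and 3 in wild type leaves.

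The genes most like each member were found by Pearson's r of log2(CPM + 0.5) over the 12 libraries, given as a description since all points share 4 genotypes. For AT2G33850 they were ZIP7 (r = 0.986), the trichome transcription factor gene GL2 (0.972) and RGP1 (0.970), which encodes an enzyme of cell wall arabinose supply. For AGP4 they were ZIP7 (r = 0.981), PCK1 (0.972), the gene of phosphoenolpyruvate carboxykinase, and RGP1 (0.969). For AT1G78050 they were G6PD3 (r = 0.966), which encodes a glucose-6-phosphate dehydrogenase, ACA2 (0.966), an alpha carbonic anhydrase gene, and the transcription factor gene WRKY8 (0.956). AT2G16660 had weaker likenesses, with AT4G25170 (r = 0.917), the protein kinase gene CDPK6 (0.913) and ORP1C (0.905). For the mean of the 4 they were ACA2 (r = 0.977), PCK1 (0.972) and ZIP7 (0.969).

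These genes spanned a wide range of losses. PCK1 averaged 40.2 ± 2.87 CPM in sapx tapx pgr5 and 33.5 ± 0.735 in pgr5 leaves, against 69.5 ± 4.80 in sapx tapx and 78.4 ± 1.48 in wild type leaves (SD, n = 3 each). RGP1 averaged 76.2 ± 2.99 CPM in sapx tapx pgr5 and 71.1 ± 3.40 in pgr5 leaves, against 116.3 ± 6.82 in sapx tapx and 121.3 ± 5.74 in wild type leaves. Their losses are small beside those of AT2G33850 and AGP4. G6PD3 averaged 8.52 ± 0.624 CPM in sapx tapx pgr5 and 12.6 ± 1.17 in pgr5 leaves, against 31.7 ± 8.27 in sapx tapx and 31.0 ± 15.5 in wild type leaves.

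The closest relatives of the members were examined in lists of their families. AT4G34950, whose protein is 83.5% identical to that of AT2G16660 over the alignment, fell in both pgr5 genotypes. It averaged 89.0 ± 8.07 CPM in sapx tapx pgr5 and 107.4 ± 19.8 in pgr5 leaves, against 234.0 ± 17.4 in sapx tapx and 239.8 ± 52.3 in wild type leaves (SD, n = 3 each). Its log2 fold change was -1.16 ± 0.17 for pgr5 over wild type (edgeR adjusted p = 0.00412) and -1.39 ± 0.17 for sapx tapx pgr5 over sapx tapx (adjusted p = 0.000360). Unlike AT2G16660, it showed no overlap between sapx tapx pgr5 and sapx tapx libraries. It was also the only one of the 13 other nodulin-like major facilitator genes tested that was called in either comparison, with a list median of -0.27 for pgr5 over wild type and -0.18 for sapx tapx pgr5 over sapx tapx. Over all genes tested the medians were -0.00105 and -0.00194. AT4G34950 was called in each of the 12 fits that left out 1 library, with an edgeR adjusted p of at most 0.0242 for pgr5 over wild type.

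For AT1G78050 the closest relative was AT1G22170, a phosphoglycerate mutase gene whose product is 73.0% identical. It averaged 4.92 ± 1.54 CPM in sapx tapx pgr5 and 4.16 ± 0.854 in pgr5 leaves, against 6.20 ± 1.53 in sapx tapx and 6.52 ± 0.874 in wild type leaves (SD, n = 3 each). Its log2 fold change was -0.64 ± 0.26 for pgr5 over wild type (edgeR adjusted p = 0.210) and -0.34 ± 0.26 for sapx tapx pgr5 over sapx tapx (adjusted p = 0.515), so neither passed. Of 16 other genes of lower glycolysis, edgeR called 0 in pgr5 over wild type, with 2 higher and 1 lower at an unadjusted p under 0.05 and 0 by DESeq2 and limma. In sapx tapx pgr5 over sapx tapx it called 3. GAPC1 rose by 0.38 ± 0.08 (edgeR adjusted p = 0.0114) and PGK3 by 0.41 ± 0.09 (adjusted p = 0.0127), while GAPC2 fell by 0.46 ± 0.09 (adjusted p = 0.0109). Each of these 3 calls was lost in 2 of 12 fits that left out 1 library, with adjusted p up to 0.0546, 0.0579 and 0.0544: without sapx tapx replicate 1 or sapx tapx pgr5 replicate 3 for GAPC1 and PGK3, and without sapx tapx replicate 3 or sapx tapx pgr5 replicate 1 for GAPC2. GAPC1 and GAPC2 encode cytosolic glyceraldehyde-3-phosphate dehydrogenases and PGK3 a phosphoglycerate kinase.

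Of 16 other arabinogalactan protein genes tested, 1 was called lower and 0 higher in each pgr5 comparison, and it was AGP10. It fell by 1.02 ± 0.23 on the log2 scale in pgr5 over wild type (edgeR adjusted p = 0.0329) and by 1.11 ± 0.22 in sapx tapx pgr5 over sapx tapx (adjusted p = 0.00950). The first call was lost in 5 of 12 fits that left out 1 library, namely any pgr5 library or wild type replicate 1 or 3 (edgeR adjusted p up to 0.125), and the second in 0. Without the 3 libraries with divergent stress genes 1 was higher and 1 lower in the first comparison and 3 higher and 2 lower in the second. The list medians were -0.16 and 0.01. AGP7, the closest relative of AGP4 by protein at 64.7% identity, had 40 reads in sapx tapx pgr5, 9 in pgr5, 17 in sapx tapx and 11 in wild type leaves and was too low to be tested. The other E6-like genes, AT1G28400 (45.4% identical to AT2G33850) and AT1G03820 (24.8%), were not called by edgeR, DESeq2 or limma in either comparison, and 1 of them was higher in each at an unadjusted p under 0.05. AT1G28400 averaged 35.2 ± 3.76 CPM in sapx tapx pgr5 and 40.0 ± 1.25 in pgr5 leaves, against 43.6 ± 7.37 in sapx tapx and 48.5 ± 8.78 in wild type leaves (SD, n = 3 each).

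**Figure D3:**
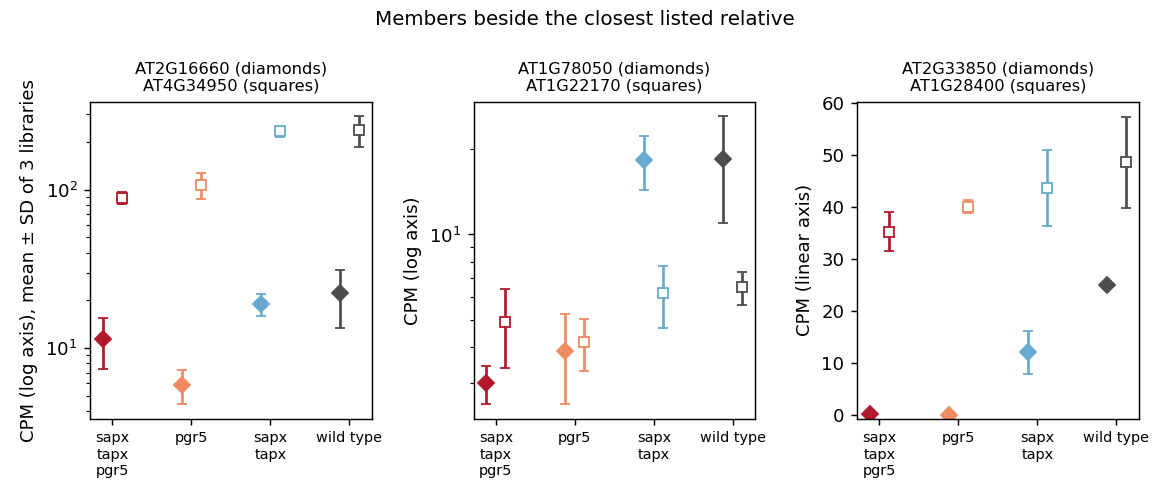
Mean ± SD of 3 libraries in CPM for 3 members (filled diamonds) and their closest listed relative (open squares) in the 4 genotypes, on a log axis for the first and second panels and a linear axis for the third. AT4G34950 is lower in both genotypes with pgr5, as is AT2G16660. Where AT2G33850 is at or near 0, AT1G28400 averages 35.2 (sapx tapx pgr5) and 40.0 CPM (pgr5), against 43.6 in sapx tapx and 48.5 in wild type leaves.

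Genes that loosen or remodel the cell wall were listed because AGP4 is a wall protein. Of 25 expansin, xyloglucan transferase and pectin methylesterase genes, edgeR called 1 higher and 1 lower in pgr5 over wild type and 1 higher and 2 lower in sapx tapx pgr5 over sapx tapx. The pectin methylesterase gene PME61 fell in both, by 2.22 ± 0.24 and 1.36 ± 0.23 on the log2 scale (edgeR adjusted p = 0.000588 and 0.00410). The expansin gene EXPB1 fell by 1.87 ± 0.43 in sapx tapx pgr5 over sapx tapx (edgeR adjusted p = 0.0198). Of the xyloglucan transferase genes, XTH5 rose by 1.03 ± 0.21 in pgr5 over wild type (edgeR adjusted p = 0.0202) and XTH6 by 1.05 ± 0.21 in sapx tapx pgr5 over sapx tapx (adjusted p = 0.00922). Without the 3 libraries with divergent stress genes the counts were 3 higher and 5 lower, and 3 higher and 4 lower. The PME61 and XTH6 calls held in all 12 fits that left out 1 library. The XTH5 call was lost without any 1 of the pgr5 or wild type libraries (edgeR adjusted p up to 0.0838). The EXPB1 call was lost without sapx tapx replicate 1 or sapx tapx pgr5 replicate 1 or 3 (up to 0.0891).

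The genes next to the members were read in the same fits. Of the 29 tested genes among the 5 to each side of each member, edgeR called 0 in pgr5 over wild type. At an unadjusted p under 0.05 there were 1 higher and 3 lower, DESeq2 called 0 and limma 1 lower. In sapx tapx pgr5 over sapx tapx, 1 was higher and 6 were lower at an unadjusted p under 0.05. DESeq2 called 3 lower and limma 2 lower. The 2 called lower by edgeR were AT5G10390 near AGP4, by 0.75 ± 0.19 (edgeR adjusted p = 0.0289), and AT1G78020 near AT1G78050, by 1.16 ± 0.27 (adjusted p = 0.0222). The first was lost without sapx tapx replicate 1 or 2 or sapx tapx pgr5 replicate 3 (edgeR adjusted p up to 0.103) and, at 0.0811, without the 3 libraries with divergent stress genes. The second was lost without sapx tapx replicate 2 or sapx tapx pgr5 replicate 1 or 3 (up to 0.0960). The nearest tested neighbour of AT2G33850 was AT2G33845 at 1672 bases, which overlaps AT2G33847 on the opposite strand. It had log2 fold changes of -0.06 ± 0.15 for pgr5 over wild type (edgeR adjusted p = 0.885) and -0.13 ± 0.15 for sapx tapx pgr5 over sapx tapx (adjusted p = 0.677). On the other side, AT2G33855 at 2259 bases had log2 fold changes of 0.01 ± 0.12 for pgr5 over wild type (edgeR adjusted p = 0.977) and 0.03 ± 0.12 for sapx tapx pgr5 over sapx tapx (adjusted p = 0.925). CYCD4;2, the nearest tested neighbour of AGP4, had -0.80 ± 0.31 (edgeR adjusted p = 0.217) and 0.14 ± 0.30 (adjusted p = 0.875). On both sides of AT1G78050, AT1G78040 and AT1G78060 had values between -0.04 and 0.10. On the lower-coordinate side of AT2G16660, PRORP2 had -0.33 ± 0.22 (edgeR adjusted p = 0.463) and -0.35 ± 0.23 (adjusted p = 0.428).

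**Figure D4:**
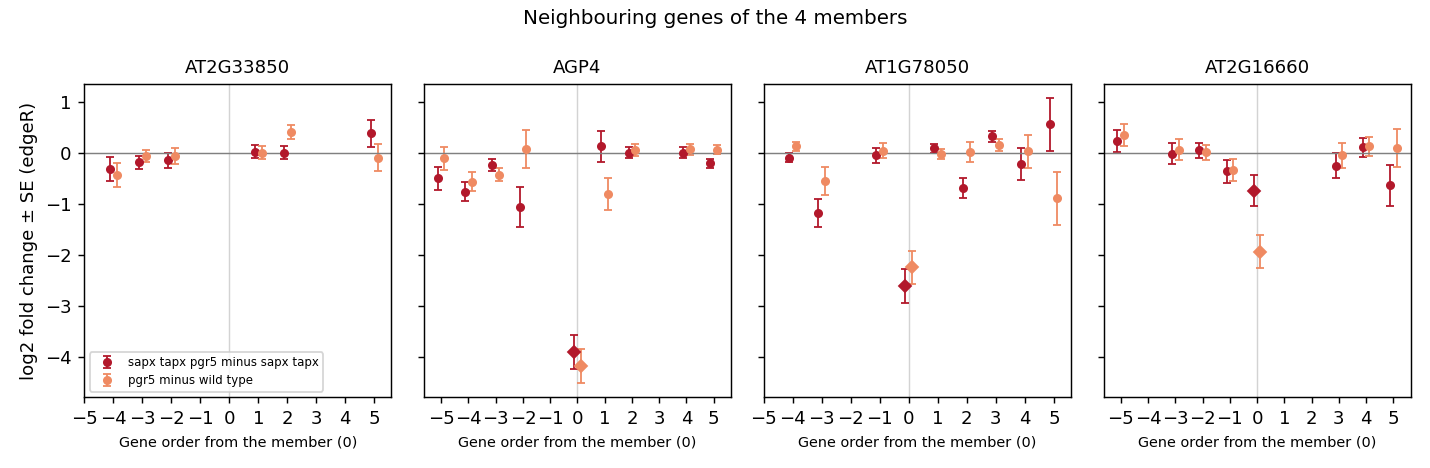
Log2 fold change ± SE (edgeR) of the tested genes among the 5 on each side of each member, by gene order, for sapx tapx pgr5 minus sapx tapx (red circles) and pgr5 minus wild type (orange circles). Diamonds at 0 are the member itself, left out for AT2G33850 because a group at 0 reads has no fitted bound; the neighbours' values lie between -1.16 and 0.57.

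Markers of leaf cell types were read beside the members. Of 16 trichome markers, 10 were tested, and 0 rose and 3 fell in pgr5 over wild type, while 1 rose and 4 fell in sapx tapx pgr5 over sapx tapx, with a median of -0.74 in both. GL2 fell by 3.41 ± 0.43 (edgeR adjusted p = 0.00165) in the first comparison, and it fell by 4.02 ± 0.55 (adjusted p = 0.000917) in the second. MYB23, a related trichome regulator gene, fell by 2.73 ± 0.51 (edgeR adjusted p = 0.0136) and fell by 2.45 ± 0.47 (adjusted p = 0.00744) in the same comparisons. With 1 library left out, 1 to 3 trichome markers fell in pgr5 over wild type and 3 to 4 in sapx tapx pgr5 over sapx tapx; the ZFP8 call in the first was lost in 9 of the 12 fits. The lowest count, 1, was reached by leaving out replicate 2 or 3 of pgr5 or replicate 1 of wild type. Without the 3 libraries with divergent stress genes 2 fell in sapx tapx pgr5 over sapx tapx, where the TTG2 call was also lost (edgeR adjusted p = 0.0586). The GL2 calls held in all 12 fits that left out 1 library. So did the call of TTG1, the marker that rose in sapx tapx pgr5 over sapx tapx (edgeR adjusted p between 0.00226 and 0.0156). Without the 3 libraries with divergent stress genes the edgeR adjusted p of TTG1 was 0.00398. The first MYB23 call was lost without wild type replicate 1 or pgr5 replicate 2 or 3 (edgeR adjusted p up to 0.0736), and the second without the 3 libraries with divergent stress genes (0.0613). The summed trichome markers lay between 54.6 and 74.3 CPM in sapx tapx pgr5 and between 62.2 and 74.4 in pgr5 libraries, against 69.3 to 92.6 in sapx tapx and 73.9 to 101.1 in wild type libraries. Of the 16, 2 were at 0 in all sapx tapx pgr5, 3 in all pgr5, 2 in all sapx tapx and 0 in all wild type libraries. GL1, the defining regulator of leaf trichomes, had 0 reads in sapx tapx pgr5, pgr5 and sapx tapx and 1 in wild type leaves. The part of the trichome markers in the levels of the 4 genes was not tested.

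Phloem markers moved the other way. Of 8 tested, 3 rose and 0 fell in each pgr5 comparison, and the sucrose transporter gene SUC2 rose by 1.19 ± 0.11 (edgeR adjusted p = 0.000133) and 1.16 ± 0.11 (adjusted p = 4.6e-05). The other calls were less stable. With 1 library left out, 2 to 3 phloem markers rose in pgr5 over wild type and 1 to 3 in sapx tapx pgr5 over sapx tapx, with 1 without sapx tapx replicate 2 or 3 or sapx tapx pgr5 replicate 1. In pgr5 over wild type the AHA3 call was lost in 7 of the 12 fits (edgeR adjusted p up to 0.125) and without the 3 libraries (0.0613). In sapx tapx pgr5 over sapx tapx SWEET12 was lost in 4 of the 12 (edgeR adjusted p up to 0.110) and PP2-A1 in 3 (up to 0.0788). The phloem sum lay between 902.1 and 997.7 CPM in sapx tapx pgr5 and between 885.4 and 998.9 in pgr5 libraries, against 718.4 to 745.3 in sapx tapx and 675.5 to 738.0 in wild type libraries. Of the epidermis, xylem and dividing cell markers (6, 6 and 7 tested), edgeR called 0 in either comparison. At an unadjusted p under 0.05, 1 epidermis marker was lower in each comparison, and 1 xylem and 1 dividing cell marker were lower in pgr5 over wild type. DESeq2 called 1 epidermis marker lower, and limma 1 dividing cell marker lower, in pgr5 over wild type. Of 7 leaf mesophyll markers, edgeR, DESeq2 and limma called 0 in pgr5 over wild type, with 2 higher and 2 lower at an unadjusted p under 0.05. In sapx tapx pgr5 over sapx tapx each called 1 lower, with 2 higher and 1 lower at an unadjusted p under 0.05. The edgeR call was LHCB1.1, lost in 5 of 12 fits that left out 1 library (edgeR adjusted p up to 0.0712). Of 11 guard cell markers 0 were called in pgr5 over wild type, with 2 lower at an unadjusted p under 0.05 and 0 by DESeq2 and limma, and FAMA fell by 0.46 ± 0.11 (edgeR adjusted p = 0.0296) in sapx tapx pgr5 over sapx tapx. The SUC2 calls held in all 12 fits that left out 1 library, while the FAMA call was lost without any sapx tapx library or sapx tapx pgr5 replicate 1 or 3 (edgeR adjusted p up to 0.121) and, at 0.0692, without the 3 libraries with divergent stress genes. The part of these markers in the levels of the 4 genes was not tested.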

How the data were processed

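RNA sequencing of 12 leaf libraries, 3 for each of 4 genotypes, was analysed. Per the file headers, the authors deposited for each library and gene raw read counts (total exon, unique exon, exon-exon, intron and gene reads) with RPKM and TPM values, and replicates were not pooled. The deposited RPKM values equalled exon reads per kilobase of exon and per 1000000 gene reads. The deposited TPM values were not used. Per the submitters' processing notes, reads refer to TAIR10. The aligner and counter: not given in the sources used here. Per the labels' protocols, libraries were made with the unstranded TruSeq RNA kit v2.

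Total exon reads entered edgeR 4.0.16 (R 4.3.3; TMM scaling, default filter on low counts leaving 16350 genes, 1 quasi-likelihood fit over 12 libraries and 4 group means), with Benjamini-Hochberg adjustment over all genes tested and calls at an adjusted p under 0.05. CPM values are TMM-scaled, and every adjusted p is from this test unless DESeq2 1.42.0 or limma 3.58.1 is named. Comparisons of genotypes with and without pgr5, and the interaction, chose the genes and carry no test for them. The members, lists and named genes were chosen with earlier results of these data known. Named were the members, the 3 genes most like each, the nearest and called neighbours, genes with the same on and off pattern, closest relatives and called list genes.

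A group without reads was set to a floor of 3 reads over its 3 libraries. Ratios of reads carry 95% exact binomial intervals, and neither these nor the floor cover more than counting error, because PCR reads lacking molecular identifiers are no independent molecules. Promoters were read from the TAIR10.1 genome at RefSeq gene starts, credited to RefSeq. Protein identity is identical residues over the length of a global alignment (Biopython 1.88) of RefSeq coding sequences. The fit was tested on simulated data, where 152 calls held 1 false one. Alternatives were another scaling, no filter, fits of the compared groups alone, unique or exon-exon reads, DESeq2, limma on log2(RPKM + 0.5), a replicate block and leaving out libraries.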

Additional observations from a re-analysis of the deposited data

How the results depend on the processing

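The alternatives changed the counts of calls over all genes and moved some values of the 4 genes. With all groups kept or the 3 divergent libraries left out, AT2G16660 in sapx tapx pgr5 over wild type lay between -1.38 and -0.39. AT2G33850 in pgr5 over wild type lay between -10.3 and -5.71, with 0 reads in pgr5 leaves. No called value changed sign, but uncalled values near 0 did: AGP4 in sapx tapx pgr5 over pgr5 (0.17, and -0.21 to 0.89 with a library left out) and its interaction (0.28, and -0.083 to 1.01), and for sapx tapx over wild type AT1G78050 (-0.02, and -0.26 to 0.33; 0.37 without the 3 libraries) and AT2G16660 (-0.24, and -0.42 to 0.12; 0.26 without the 3 libraries). The 4 genes were chosen for low reads in both genotypes of sapx tapx pgr5 over pgr5, so that comparison is not independent of the choice. Of the 4 genes, edgeR called 0 for sapx tapx over wild type and 0 for sapx tapx pgr5 over pgr5. It called 0 with any single library left out. Without the 3 libraries with divergent rapid stress levels, chosen after seeing the data, it called 1 in each. The libraries left in differed by genotype in rapid stress levels, so genotype and stress level cannot be told apart there. The median log2 fold change over the 4 genes was -3.20 for pgr5 over wild type (-3.73 to -2.92 with a library left out), -3.25 for sapx tapx pgr5 over sapx tapx (-3.45 to -3.07; -2.74 with limma on RPKM) and -3.32 for sapx tapx pgr5 over wild type (-3.52 to -3.13; -2.85 with limma). The pseudocount of the limma fit shrinks the change of low genes by its construction. Each median lies between the values of AGP4 and AT1G78050 and describes the choice of the genes. The interactions differed by gene and are not pooled. That of AT1G78050 was -0.38 ± 0.47 (-0.73 to -0.053 with a library left out). That of AT2G16660 was 1.19 ± 0.44 (0.83 to 1.40). For AT2G33850, near 0 reads with pgr5, no interaction is given.

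For sapx tapx over wild type the 6 genes called became 3 with the compared groups alone, 16 with exon-exon reads, 29 with the replicate block, 56 with DESeq2 and 773 without the 3 libraries, and 4 to 81 with a library left out, the most without wild type replicate 2. For sapx tapx pgr5 over pgr5 the 252 became 416 with the block and 1091 without the 3 libraries, and 112 to 341 with a library left out. For pgr5 over wild type the 638 became 337 with the compared groups alone, 345 with exon-exon reads and 1470 without the 3 libraries, and 210 to 660 with a library left out. For sapx tapx pgr5 over sapx tapx the 1293 became 691 with exon-exon reads, and 746 to 1523 with a library left out. The cause was not tested. Limma on RPKM gave 313 higher and 292 lower calls for pgr5 over wild type, against 399 and 239 with edgeR.

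Replicate numbers did not pair the libraries across all genotypes: deviations of same-numbered libraries from their group means correlated between -0.67 and 0.62. Between sapx tapx and sapx tapx pgr5 they correlated at 0.45, 0.62 and 0.38, against -0.46 to 0.17 for different numbers. Between wild type and pgr5 they correlated at 0.19, 0.45 and 0.35, against -0.34 to 0.15. Between wild type and sapx tapx pgr5 they were -0.30, -0.67 and -0.20. Pairing in the pgr5 comparisons was thus not settled. The replicate block changed no call of the 4 genes. Genes at 0 in all libraries with pgr5 numbered 0, and 1 (MYB86) when at least 3 reads in each other library sufficed. Exon-exon reads gave no value for AT2G33850 and AGP4, which have 1 exon. AGP4 in pgr5 over wild type was -4.91 without pgr5 replicate 2, the library with 5 of the 8 pgr5 reads. At this depth, sapx tapx pgr5 and pgr5 leaves cannot be ordered by AT2G33850 or AGP4.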
